A study of Ovis aries with 18 samples.

Results

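BTG2, ETS2 and EGR1 are early regulators, genes whose products control the transcription or the turnover of other messages soon after a cell is stimulated, and they were followed here in sheep whole blood exposed to bacterial lipid agonists. The 3 genes, of which the study itself listed BTG2 and ETS2 as changed on these arrays, were given by name. They were taken from the array by probe, with no use of measured values in this step. They are 3 of the 949 genes that could be named on the Agilent Sheep 8x15K array, and account for 4 of its 15008 non-control probes: 1 for BTG2 (A_70_P047196), 1 for ETS2 (A_70_P049396) and 2 for EGR1 (A_70_P041731 and A_70_P041732). BTG2 and ETS2 were well above background on 18 of 18 arrays. EGR1 was not: 1 of its probes passed that mark on 0 of 18 arrays and the other on 4 of 18, so that 2 of the 4 probes entered the tests.

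Venous blood came from 6 healthy adult female sheep of about 3 years, called 71Y, 51Y, 20, 170, 80 and 65Y in the labels. The heparinised blood of each animal was divided over 3 treatments: phosphate-buffered saline (PBS, the vehicle), 1 µg of lipopolysaccharide (LPS, a cell wall lipid of Gram negative bacteria that acts through toll-like receptor 4) or 10 µg of monophosphoryl lipid A (MPLA, a lipid A that lacks the phosphate at C1 and acts through the same receptor). After 90 minutes the blood was preserved, and its RNA was hybridised to 1 array for each animal and treatment, 18 arrays in all. The labels give these amounts without a volume, and the study's methods state them per mL. The amounts of LPS and MPLA differed, so that agonist and amount cannot be told apart in any comparison between them. Blood was outside the animal during exposure, and no genetic change was involved. The study set the response of sheep blood to these agonists beside that of human blood, and its human samples were not analysed here.

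BTG2 belongs to the BTG and TOB family, small antiproliferative proteins that bring the CCR4-NOT deadenylase to messages and so shorten their poly(A) tails. ETS2 is a member of the ETS family of transcription factors and is activated by phosphorylation downstream of Ras and ERK. EGR1 is a zinc finger transcription factor, the textbook immediate early gene, induced within minutes through ERK and serum response factor and switched off again soon after. In monocytes and macrophages, toll-like receptor 4 also switches on the ERK kinases.

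Brightness varied over the arrays. Their signal at the 75th percentile ran from 24.7 to 123.1 units, the share of probes well above background ran from 23.9% to 45.1%, and PBS of animal 170 was lowest in both. A level below is the processed signal of a probe divided by that percentile of its array, and a change is the difference of log2 levels between treatments of the same animal. The arrays lay on 3 slides, each with 2 to 3 animals, and animal 170 was the only one divided over slides (PBS and LPS on slide 1, MPLA on slide 2). Of the marker genes for blood cells, CD3D and CD3E (the T cell receptor complex), CD14 and LYZ (monocytes) and HBB (haemoglobin) were measured on every array, whereas both probes of CD4 were well above background on 0 of 18. Whole blood is a mixture, and a smaller number of cells of a type cannot be told apart here from less RNA in each cell.

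BTG2 was higher after LPS in 5 of 6 animals. Its level in PBS was 14.1 at the lowest (animal 20), 24.4 at the median and 41.6 at the highest (animal 170). After LPS the lowest, median and highest levels were 25.5, 38.2 and 48.7, in which animal 20 was again the lowest and 71Y was the highest. The LPS and PBS groups overlapped, with the middle of the LPS group close to the top of the PBS group. Within animals, the log2 change was 1.04 in 71Y, 0.50 in 51Y, 0.85 in 20, -0.25 in 170, 0.33 in 80 and 1.08 in 65Y. Animal 170 was the only one below its own PBS sample. That direction held with scaling to the median (-0.39) and turned under the other ways of scaling. It had the highest BTG2 level of the PBS group after scaling, on the dimmest array. Its PBS signal before scaling was 1028 units, between 700 in 51Y and 2905 in 71Y. The mean change was 0.59 ± 0.20 (SE, n = 6 animals), a fold of 1.51 with a 95% interval of 1.101 to 2.07.

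ETS2 was higher after LPS in all 6 animals. Its PBS levels were 11.6 at the lowest (71Y), 19.8 at the median and 49.1 at the highest (170). After LPS they were 22.03 (65Y), 36.7 and 53.1 (170). The groups overlapped mainly through animal 170, whose PBS level was above the LPS level of every other animal, while the other PBS levels reached 24.2 (80), just over the lowest LPS level. The log2 change was 1.59 in 71Y, 0.94 in 51Y, 0.93 in 20, 0.11 in 170, 0.64 in 80 and 0.59 in 65Y. The mean change was 0.80 ± 0.20 (SE, n = 6), a fold of 1.74 with a 95% interval of 1.28 to 2.37.

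Neither gene passed the test across the array. By limma with the animal as a block, the adjusted p was 0.790 for BTG2 (0.0159 unadjusted) and 0.194 for ETS2 (0.00258 unadjusted), and 0 of these 2 probes were called, against 37 of the 4122 tested probes, or 0.898%. At an unadjusted p under 0.05 both were included, as were 3.86% of the tested probes. Both also met the limits of the paired test that the study's methods describe, an unadjusted p under 0.05 and a fold above 1.5. Of the tested probes, 1.8% met them, and BTG2 did so with its fold of 1.51 at the edge of the limit. The study listed both genes as changed by this test on these same arrays, so that meeting its limits again is no separate support. After Benjamini-Hochberg adjustment of that test, 0.267% of probes were called and neither gene was among them. A change larger than that of BTG2 was found in 2.30% of the tested probes, and one larger than that of ETS2 in 1.38%. Higher in 6 of 6 animals, as ETS2 was, were 2.38% of the tested probes.

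**Figure D1:**
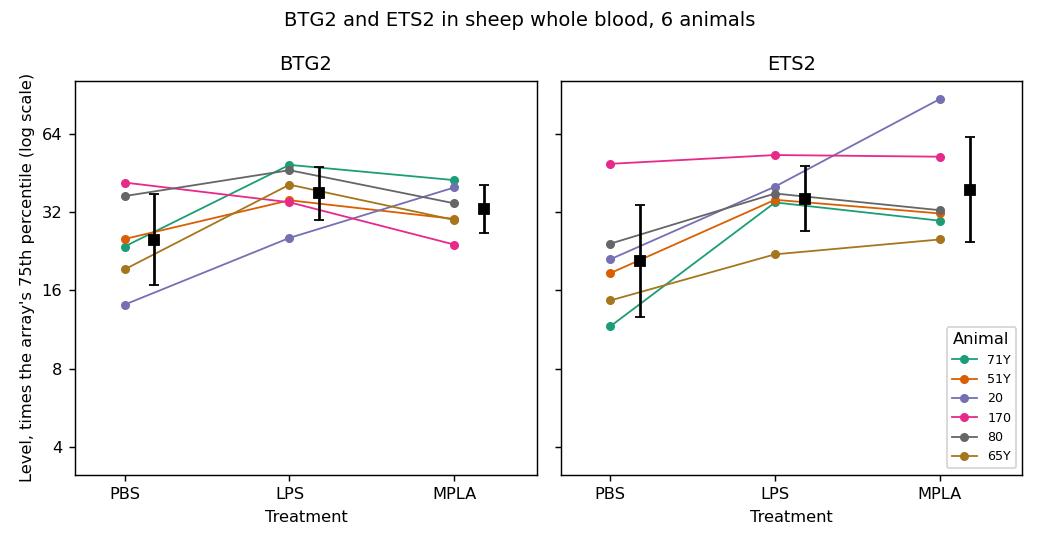
Levels of BTG2 (left) and ETS2 (right) in whole blood of 6 sheep after PBS, LPS or MPLA, as the signal over the array's 75th percentile on a log scale. Coloured points joined by lines are animals, and black squares with bars are the geometric mean and 1 SD of the log2 levels. The ETS2 lines go up from PBS to LPS in 6 of 6 animals and the BTG2 lines in 5 of 6, and animal 170 starts highest in both panels.

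After MPLA, BTG2 was higher in 4 of 6 animals and ETS2 in 6 of 6. BTG2 was at 24.0 at the lowest (170), 32.4 at the median and 42.5 at the highest (71Y), and the group overlapped that of PBS. Its log2 change was 0.85 in 71Y, 0.26 in 51Y, 1.499 in 20, -0.79 in 170, -0.09 in 80 and 0.63 in 65Y. The changes ran in both directions and the interval of the mean took in 0: the mean log2 change was 0.39 ± 0.27 (SE, n = 6), with a 95% interval of -0.21 to 0.99. By limma its adjusted p was 0.679 and its unadjusted p 0.176.

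ETS2 levels after MPLA were 25.1 at the lowest (65Y), 32.1 at the median and 87.3 at the highest (20). Animal 20 stood well above the other MPLA samples, of which the next highest was 170. The log2 change was 1.35 in 71Y, 0.76 in 51Y, 2.05 in 20, 0.09 in 170, 0.43 in 80 and 0.78 in 65Y. All 6 animals were thus higher, as for 2.09% of the tested probes, while animal 170 lay close to its PBS value as it did after LPS. The mean change of 0.91 ± 0.25 (SE, n = 6) corresponds to a fold of 1.88 with a 95% interval of 1.29 to 2.75, and its adjusted p by limma was 0.257 (unadjusted p = 0.00412). In this comparison 0 of the 2 probes were called, against 42 of the 4122 tested probes, or 1.02%. At an unadjusted p under 0.05, ETS2 was included and BTG2 was not, beside 6.79% of the tested probes. The same held for the methods' paired test, whose limits 2.28% of the tested probes met and which called 0.291% of them after adjustment, neither gene included. The LPS and MPLA comparisons share their PBS samples, and the high PBS levels of animal 170 therefore enter both. Those levels were high after scaling only. Before scaling, its PBS signal for ETS2 was 1214 units, between 517 in 51Y and 2091 in 20.

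**Figure D2:**
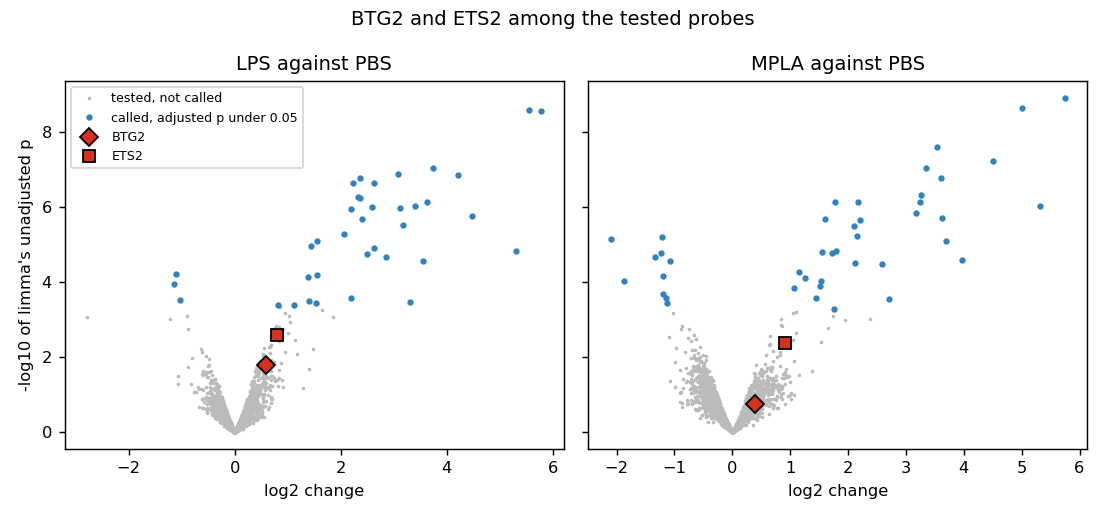
The log2 change (horizontal axis) against -log10 of the unadjusted p from limma (vertical axis) for the 4122 tested probes, for LPS against PBS on the left and MPLA against PBS on the right. Blue points are the 37 and 42 probes called at an adjusted p under 0.05, and BTG2 and ETS2 lie below them, BTG2 at 0.59 and 0.39 and ETS2 at 0.80 and 0.91 on the horizontal axis.

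By mean level, BTG2 was ordered PBS, MPLA, LPS (geometric means of 25.1, 32.9 and 37.8) and ETS2 was ordered PBS, LPS, MPLA (20.7, 36.1 and 39.0). For neither gene did neighbours in that order differ beyond the adjusted threshold. Set directly against LPS, MPLA gave a log2 change of -0.20 ± 0.20 for BTG2 (SE, n = 6; 95% interval -0.64 to 0.24; limma, adjusted p = 0.830) and of 0.11 ± 0.21 for ETS2 (95% interval -0.37 to 0.59; limma, adjusted p = 0.896). In 5 of 6 animals BTG2 was lower after MPLA than after LPS, and animal 20 was the exception at 0.65. With scaling to the median and with no scaling, animal 20 was lower as well, at -0.09 and -0.67. ETS2 was lower after MPLA than after LPS in 4 of 6 animals, its medians ran the other way from its geometric means (36.7 for LPS and 32.1 for MPLA), and without animal 20, which was at 1.12, its mean change was -0.091. Under the scaling used for these levels, the place of MPLA above LPS in the order for ETS2 thus rests on that animal. It did not under each way of scaling. With no scaling, the mean change of ETS2 was 0.27 while animal 20 was at -0.20. With scaling to the median, the mean was 0.31, and animals 170 (0.85) and 65Y (0.89) were above animal 20 (0.38). The intervals leave room for a difference of about 0.6 on the log2 scale in 1 direction for each gene, so the samples do not show that the agonists act alike. Of the 2 probes 0 were called here by limma, also at an unadjusted p under 0.05, and 0 met the limits of the methods' paired test. Over all tested probes, 2 of 4122 were called (0.0485%), both lower after MPLA, while 4.73% had an unadjusted p under 0.05, 1.31% met the limits of the methods' paired test and 0.0243% passed it after adjustment.

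The scaling of the arrays moved single animals more than it moved the means. The median change of all tested probes was 0.00 for LPS and -0.09 for MPLA, but within single animals it was 0.38 for LPS in 71Y, -0.41 for LPS in 170, 0.29 for MPLA in 20 and -0.40 for MPLA in 80. ETS2 was at 1.59, 0.11, 2.05 and 0.43 in the same 4 pairs, which include its largest and smallest value with LPS and its largest with MPLA. How far the scaling set those values was not tested. With signals taken as deposited and no scaling at all, ETS2 was 2.14-fold higher after LPS in 71Y, 2.24-fold in 51Y, 2.13-fold in 20, 1.98-fold in 170 and 2.28-fold in 80, and was at 0.681 of its PBS signal in 65Y. The 65Y array for LPS was dim, with a 75th percentile of 28.5 against 63.2 for the PBS array of that animal. Without scaling, ETS2 after MPLA was between 1.81-fold and 3.94-fold higher in all 6 animals. BTG2 without scaling was above PBS in 5 of 6 animals for each agonist, at 0.958 of PBS in 65Y after LPS and at 0.982 in 170 after MPLA. Over the 6 ways of scaling, BTG2 was higher after MPLA in 5 of 6 animals under each way but scaling to the 75th percentile, under which it was higher in 4. After LPS, BTG2 was higher in 6 of 6 animals with quantile normalization, with normexp and in the authors' table, where animal 170 was above its PBS sample, and in 5 of 6 otherwise. ETS2 was higher after MPLA in 6 of 6 animals under all 6. After LPS it was higher in 6 animals under 4 of them, in 5 with no scaling and in 4 with scaling to the median. Between the agonists, ETS2 was higher after MPLA in 4 of 6 animals with quantile normalization and with normexp. It was higher in 3 with scaling to the median and in the authors' table, and in 2 otherwise. BTG2 was higher after MPLA than after LPS in 3 of 6 animals with scaling to the median, in 2 with no scaling and in 1 otherwise.

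**Figure D3:**
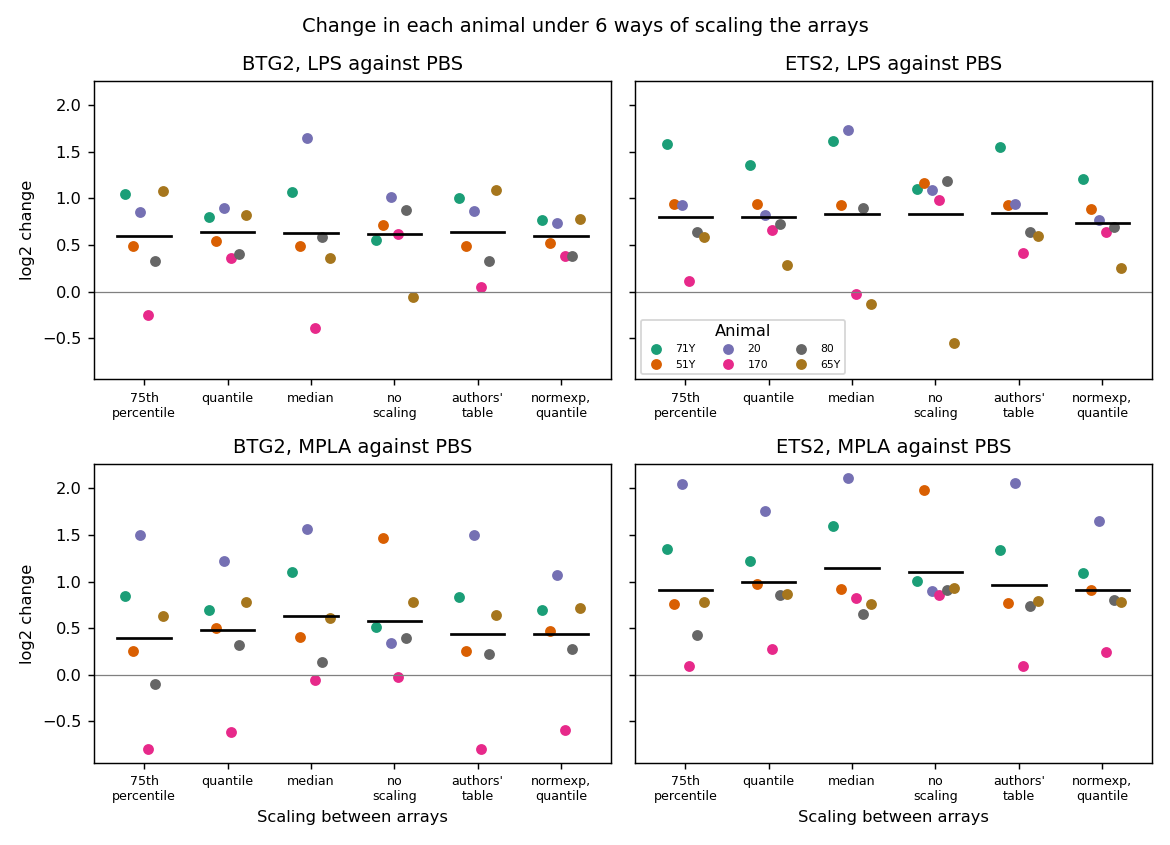
The log2 change of BTG2 (left) and ETS2 (right) in each of the 6 animals, for LPS (top) and MPLA (bottom) against PBS, under 6 ways of scaling the arrays. Points are animals and black bars are means. Animal 170 (pink) lies at -0.25 for BTG2 after LPS when scaled to the 75th percentile and at 0.36 with quantile normalization, and the ETS2 means stay between 0.74 and 1.15.

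Over the pairs that lay on 1 slide, the mean change against PBS was above 0 on each slide for both genes. For LPS, the mean log2 change of BTG2 was 0.40 on slide 1, 0.71 on slide 2 and 0.67 on slide 3, and that of ETS2 was 0.85, 0.62 and 0.93, each from 2 animals. For MPLA, with 1 animal on slide 1 and 2 on each of the other slides, BTG2 was at 0.85, 0.27 and 0.88 and ETS2 at 1.35, 0.60 and 1.41. Animal 170, divided over slides, is left out of all means with MPLA, and its changes from PBS were -0.79 for BTG2 and 0.09 for ETS2. The slides held different animals, so that these means cannot tell a slide from its animals. Between the agonists the slides did not have 1 direction: on slides 1, 2 and 3 the change from LPS to MPLA was -0.20, -0.44 and 0.20 for BTG2 and -0.23, -0.01 and 0.47 for ETS2.

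Resting levels of the genes varied from animal to animal about as much as those of other probes. The highest PBS level was 2.95 times the lowest for BTG2 and 4.23 times for ETS2. The SD of log2 levels over the PBS samples was 0.58 for BTG2 and 0.72 for ETS2, against a median of 0.56 over the tested probes; 46.5% and 28.4% of the probes had a larger SD. Of the variation over the 18 arrays, animals held 24.2% for BTG2 and 46.4% for ETS2, treatments held 28.6% and 34.3%, and the rest was 47.2% and 19.2%. In the median probe, animals held 59.8% and treatments 5.37%. As a description, both members thus had more of their variation between treatments than the median probe, and less of it between animals.

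EGR1 was measured above the detection mark on few arrays. A_70_P041731 was at the lowest processed signal of its array on 18 of 18 arrays, about 0.20 of the dimmest signal that counted as well above background, and so carried a stand-in that follows the array and not the gene. A_70_P041732 gave a signal of its own on each array. It was well above background on all 3 arrays of animal 51Y and on the PBS array of animal 20, that is on 2 of 6 PBS arrays, 1 of 6 LPS arrays and 1 of 6 MPLA arrays. Of the 4 detections, 3 were thus in a single animal, under all of its treatments. In 51Y the signal was 51.2 units after PBS, 46.7 after LPS and 118.5 after MPLA, or 2.58, 2.66 and 6.59 times the dimmest detected signal of the array. Relative to the 75th percentile, the levels of that animal were 1.84, 1.44 and 1.84, so that the brighter MPLA spot lay on a brighter array. On the 15 arrays of the other animals the levels ran from 0.108 to 0.507, and the signal on PBS of animal 20 was 1.25 times the dimmest detected one.

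With so few arrays above background, EGR1 was not tested and no fold is given. Outside animal 51Y, its differences between treatments lie mostly between spots below the detection mark, so that at this signal over background, and at the one time of 90 minutes, these arrays cannot show whether EGR1 changed. The 2 probes are meant for the same gene and disagreed in animal 51Y, where A_70_P041731 stayed at the stand-in value on all 3 arrays.

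**Figure D4:**
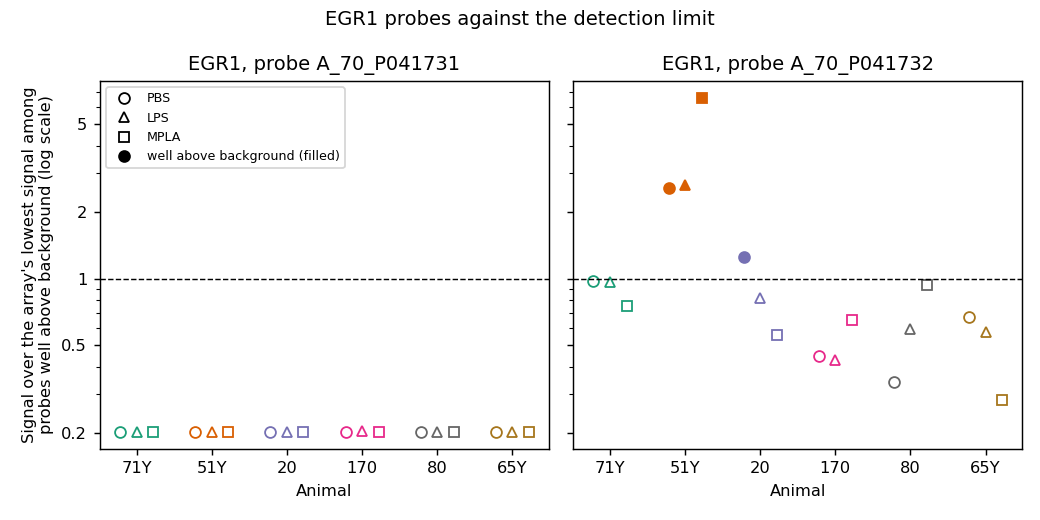
Signals of the EGR1 probes A_70_P041731 (left) and A_70_P041732 (right) relative to the dimmest spot that counted as well above background on that array (dashed line at 1, log scale), by animal and treatment. Filled symbols are well above background: 0 of 18 on the left, and on the right 4 of 18, of which 3 belong to animal 51Y.

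The genes most like BTG2 and ETS2 in pattern were sought among 357 named genes, by Pearson correlation of log2 levels over the 18 arrays after the mean of each animal was removed. The arrays come from 6 animals and share their scaling, so the values are a description. For BTG2 they were ATP1B1 (a subunit of the sodium pump, r = 0.92), HSD11B1 (the enzyme that regenerates cortisol, 0.87), KYNU (kynureninase, of tryptophan breakdown, 0.86), ETS2 itself (0.85) and PAF1 (a subunit of a transcription elongation complex, 0.80). Only 0.274% of the tested probes had a higher correlation with BTG2 than ETS2 had.

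For ETS2 they were IL10 (an anti-inflammatory cytokine, r = 0.87), KYNU (0.87), CSF2 (the growth factor GM-CSF, 0.87), PTGS2 (the inducible prostaglandin synthase, 0.87) and ATP1B1 (0.85), with BTG2 next at 0.85. Of these, IL10 and PTGS2, detected on every array, passed the test for both agonists. IL10 rose by a log2 change of 3.09 with LPS and of 3.60 with MPLA (adjusted p = 0.000115 and 0.000112, limma), and PTGS2 rose by 2.64 and 1.76 (limma, adjusted p = 0.00231 and 0.0496). CSF2 passed the detection mark on 0 of 6 arrays for PBS, 4 of 6 for LPS and 6 of 6 for MPLA, so that it has no level in PBS, it entered the tests through the agonist arrays alone, and its likeness to ETS2 rests in part on values below that mark. ATP1B1 and KYNU did not pass the test (log2 changes of 1.03 and 0.69 with LPS and of 0.61 and 0.56 with MPLA). After the animal means were removed, the levels of BTG2 and ETS2 correlated with the log2 75th percentile of the array at r = -0.56 and -0.29 over the 18 arrays, and the part of array brightness in the likeness was not tested.

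Other early genes were few on the array. Of a list of 45 early response genes, 5 had a named probe and 3 were tested, and 0 of 3 passed the test in either direction in any comparison (limma). At an unadjusted p under 0.05, limma included MYC for LPS, 0 of 3 for MPLA, and MYC and RGS2 for MPLA against LPS, beside 3.86%, 6.79% and 4.73% of all tested probes. The methods' paired test passed only MYC of the 3, for LPS and for MPLA against LPS, where 1.8% and 1.31% of all tested probes passed. MYC, a transcription factor of growth and division, was at 0.83 ± 0.45 (SD, n = 6) after LPS and was higher in 6 of 6 animals (limma, adjusted p = 0.136). After MPLA it was at 0.21, and it was lower after MPLA than after LPS in 6 of 6 animals, by 0.62 on the log2 scale at the mean (limma, adjusted p = 0.823). In PBS this probe was well above background on 5 of 6 arrays, and a second MYC probe on 4 of 6. The second probe gave 0.84 (SD 0.94) for LPS, 0.35 for MPLA and -0.49 (SD 0.65) for MPLA against LPS. It did not pass the test in any comparison (limma). RGS2, an inhibitor of G protein signalling, was at 0.21 with LPS and -0.29 with MPLA, and ZFP36, which destabilises cytokine messages, at -0.06 and -0.09. The median of the 3 tested genes was 0.21 for LPS and -0.09 for MPLA, beside 0.00 and -0.09 over all tested probes. FOS, an immediate early gene induced through the same route as EGR1, was well above background on 0 of 18 arrays with each of its 3 probes. A probe of ACTB, a housekeeping gene of every cell, was also well above background on 0 of 18 arrays, so a probe under the mark does not show that its gene was silent.

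The families of the members were covered more thinly still. Of 18 genes of the BTG and TOB family and the CCR4-NOT complex, 2 were named and only CNOT7, a deadenylase subunit, was tested (0.13 with LPS and -0.21 with MPLA on the log2 scale; its second probe gave 0.35 and 0.14). TOB2 was well above background on 0 of 18 arrays. Of 16 further ETS family factors, only ELF2 was named and tested, with -0.02 and -0.14. None of 20 genes of the ERK to serum response factor route and of EGR1 partners had a named probe. In these lists too, 0 genes passed the test (limma), and 0 did so at an unadjusted p under 0.05 or by the methods' paired test. With 2 genes tested, and between 0.0485% and 1.02% of all tested probes called in the 3 comparisons, this count says little about the families.

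The marker genes of blood cells gave mostly small values beside those of BTG2 and ETS2. Tested were 2 of 7 listed T cell markers, 2 of 6 for monocytes and 1 of 7 for erythroid cells. CD3D and CD3E were at -0.05 and -0.06 with LPS and at 0.01 and 0.05 with MPLA on the log2 scale, and their summed level ran from 220 to 472 in PBS, from 223 to 493 in LPS and from 245 to 529 in MPLA. CD14 was at -0.31 with LPS and -0.47 with MPLA, and was lower in 5 of 6 animals each time; its second probe gave -0.17 and -0.42. LYZ was at -0.10 and -0.17. The summed level of these 2 monocyte markers ran from 27.0 to 53.8 in PBS, from 25.5 to 46.4 in LPS and from 21.7 to 57.5 in MPLA. HBB ran from 1206 to 5853 in PBS, from 1114 to 5371 in LPS and from 861 to 2590 in MPLA. Of these 5 genes 0 passed the test (limma), against 0.898% of all tested probes with LPS and 1.02% with MPLA. CD14 with MPLA was included at an unadjusted p under 0.05, as were 6.79% of all tested probes, 0 met the limits of the methods' paired test, and the summed levels overlapped between all groups. GAPDH, a housekeeping gene, was at -0.20 ± 0.08 (SD, n = 5, with 1 LPS spot left out as an outlier) with LPS, lower in each of those animals, and at 0.23 ± 0.54 (SD, n = 6) with MPLA, and did not pass the test either. No named probe stood for B cells, neutrophils or platelets (0 of 5, 0 of 7 and 0 of 5 listed genes), so the part of those cells in the BTG2 and ETS2 values was not tested.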

How the data were processed

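RNA from 18 samples of sheep blood was amplified, labelled and hybridised to 1-colour Agilent Sheep 8x15K arrays, and the authors deposited the Agilent Feature Extraction output (version 11.5.1.1 per the file headers). The deposited processed signal is a fluorescence intensity from which the scanner software had removed the background, and the labels name 2 amplification kits and do not say which array used which. The value table deposited by the authors, a ratio to the 75th percentile of each array, served as an alternative. On LPS of animal 170 and MPLA of animal 80 its own 75th percentile was 1.27 and 1.26, against about 1.01 on the others, so those arrays carry another scaling there.

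Each processed signal was divided here by the 75th percentile of its array and put on the log2 scale, without spots flagged as outliers. Probes well above background on all 6 arrays of at least 1 treatment (4122) were tested with limma 3.58.1 in R 4.3.3, two-sided, with the animal as a block, as in the paired design of the study's methods, at a Benjamini-Hochberg adjusted p of 0.05. The script was tested on simulated data. The pairing comes from the animal names in the labels, and deviations of same-animal arrays correlated at 0.603 on average over 18 pairs (0.141 to 0.900). Separate draws or cultures within an animal are not described, so p-values measure how the change within an animal varies over the animals, array noise included. Precision is limited by the number of arrays.

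Of the 15008 probes, 2200 carried a RefSeq accession and 1265 of those matched the gene table given (assembly ARS-UI_Ramb_v3.0); 7 further probes, ETS2 among them, were named by probe from the study's own list. No sequences or coordinates were used here. The genes named are the members, the 5 named genes most correlated with each tested member, and tested genes of the lists, each by its brightest tested probe. The members and lists were chosen with earlier results of these data known. Alternatives covered scaling, background, filter, block, slide, floor, flagged spots, the methods' test and leaving out each animal. The slide alternatives repeat other fits, since every LPS pair lay on 1 slide and only animal 170 was divided for MPLA.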

Additional observations from a re-analysis of the deposited data

Results flagged for a closer look

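In the comparison of MPLA with LPS, scaled to the 75th percentile, animal 20 stood apart from the other 5 animals for both genes. For BTG2 its log2 change was 0.65, while the other animals lay between -0.54 and -0.20. For ETS2 its log2 change was 1.12, while the others lay between -0.23 and 0.19. Both gaps exceed Dixon's 95% critical value for 6 samples. Of 18 groups of 6 values examined, 2 held such a value, and chance alone marks about 1 group in 20. The 2 values are from the same pair of arrays, whose 75th percentiles were 111.0 units for LPS and 44.6 for MPLA, and the median change of all tested probes in this pair was 0.23. With scaling to the median, animal 20 was at -0.09 for BTG2 and at 0.38 for ETS2, where 170 was at 0.85. With no scaling it was the lowest for BTG2 (-0.67) and at -0.20 for ETS2. It stayed the highest for both genes with quantile normalization, with normexp and in the authors' table.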

How the results depend on the processing

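Of 120 recomputed log2 changes of BTG2 and ETS2, 111 kept their direction and their side of the threshold. The slide alternatives are not among them: for LPS they equal the values reported, and for MPLA they equal those without animal 170. With normexp background correction followed by quantile normalization, BTG2 with LPS (0.60, adjusted p = 0.0168), ETS2 with LPS (0.74, adjusted p = 0.0185) and ETS2 with MPLA (0.92, adjusted p = 0.0281) were called by limma. ETS2 with MPLA was also called with scaling to the median (1.15, adjusted p = 0.0220), which shifted the median change over tested probes from -0.09 to 0.14, and ETS2 with LPS without animal 170 (0.94, adjusted p = 0.0316). The lowest and highest adjusted p of ETS2 over the alternatives were 0.0185 and 1.00 with LPS and 0.0220 and 0.997 with MPLA; BTG2 with LPS ran from 0.0168 to 1.00. The cause was not tested. The methods' paired test on the same values (0.59, 0.80 and 0.91) passed BTG2 with LPS and ETS2 with both agonists. BTG2 with MPLA was called in no alternative run (0.17 to 0.63). Leaving out 1 animal gave 0.49 to 0.76 for BTG2 and 0.64 to 0.94 for ETS2 with LPS, and 0.17 to 0.63 and 0.68 to 1.08 with MPLA. ETS2 between MPLA and LPS ran from -0.091 to 0.18 and turned negative only without animal 20 (-0.091). BTG2 between MPLA and LPS ran from -0.37, without animal 20, to -0.13, without 170, and was at -0.003 with scaling to the median. Probes called numbered 28 to 53 for LPS, 34 to 297 for MPLA and 0 to 17 for MPLA against LPS when 1 animal was left out; the highest counts for MPLA (297) and for MPLA against LPS (17) were without animal 20, and the count was 0 without 71Y, 51Y, 80 or 65Y. The methods' test passed 74, 94 and 54 probes, and 11, 12 and 1 after Benjamini-Hochberg. Without the replicate block 29, 29 and 0 probes were called, and the members stayed uncalled. With no filter the count was 24 for MPLA and 0 for MPLA against LPS. For the latter it was 1 with scaling to the median, with a filter of 4 of 6 arrays, and with no scaling, an alternative chosen after seeing the data. Signal over background limits what can be said of EGR1, which a filter of 4 of 6 arrays did not admit either.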
